A study of Mus musculus with 12 samples.

Results

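AP-1 subunits and immediate early genes are described here as 10 genes: the Jun and Fos subunits of the transcription factor AP-1 (Jun, Junb, Jund, Fos, Fosb, Fosl1, Fosl2), their partner Atf3, and Egr1 and Ier2. They were chosen by symbol, and every probe set that the platform annotation tied to exactly 1 of them was taken. This gave 14 of the 45037 probe sets tested, for 10 of 18193 genes: 6 genes had 1 probe set and 4 had 2. The study set CD34+ against CD34- keratinocytes, separated with magnetic beads (MACS) from the skin of mice labelled C57 DBA. CD34 is a glycoprotein on keratinocytes of the hair follicle bulge, the seat of slow-cycling stem cells. There were 3 isolations, pooling at least 6 mice each time, and each fraction's RNA went onto 2 Affymetrix arrays, so 6 CD34+ and 6 CD34- arrays represent 3 RNA samples of each fraction. Which arrays carry the same RNA is not labelled, and neither are age and sex of the mice.

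AP-1 is a pair of bZIP proteins, a Jun protein with itself or with a Fos or ATF protein, that binds DNA through a basic region beside a leucine zipper. Immediate early genes are transcribed within minutes of a growth factor, a stress or a wound, without new protein synthesis, and their mRNAs are short-lived. In epidermis AP-1 is known for roles in proliferation, wound healing and terminal differentiation. Taking tissue apart into single cells is also known to induce these genes.

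The proximal promoters of genes that were lower in CD34+ cells are shown because such genes answer signals through elements near the start. RefSeq promoter windows of build GRCm38.p6, from 250 bases before to 50 bases after the annotated start, were matched for 7 of the 10 genes. Fosl1, Egr1 and Ier2 had no window and were not searched. The pentamer TGACG, the first part of the cyclic AMP response element TGACGTCA, stood on either strand in 4 of the 7 windows (Junb, Fos, Fosb and Atf3) and in 20.8% of 32851 windows of that length. The whole element TGACGTCA was in 0 of the 7 and 1.79% of all windows. The AP-1 element TGANTCA was in 0 of 7 and 7.81%, and the CArG box bound by serum response factor in 0 of 7 and 1.63%, each searched on both strands. Elements farther than 250 bases before the start were not searched, so these counts do not show that a gene lacks them. The window of Jun held TGACATCA, a variant AP-1 element, as 3.62% of all windows do. The stretches run 5′ to 3′ on the gene's strand from 150 bases before to 20 bases after the start, with TGACG and TGACATCA in capitals, and in Atf3 the reverse complement of the pentamer, which lies on the other strand. They lie at chr8:84978729-84978898 (minus strand) for Junb, chr12:85473740-85473909 (plus strand) for Fos, chr7:19310026-19310195 (minus strand) for Fosb, chr1:191183314-191183483 (minus strand) for Atf3 and chr4:95052203-95052372 (minus strand) for Jun.
Junb: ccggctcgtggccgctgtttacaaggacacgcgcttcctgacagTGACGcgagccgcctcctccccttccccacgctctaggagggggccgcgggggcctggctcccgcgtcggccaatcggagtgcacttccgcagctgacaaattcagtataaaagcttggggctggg
Fos: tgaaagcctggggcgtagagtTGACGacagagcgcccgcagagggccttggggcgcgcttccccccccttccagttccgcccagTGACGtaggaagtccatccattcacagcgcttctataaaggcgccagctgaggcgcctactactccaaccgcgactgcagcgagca
Fosb: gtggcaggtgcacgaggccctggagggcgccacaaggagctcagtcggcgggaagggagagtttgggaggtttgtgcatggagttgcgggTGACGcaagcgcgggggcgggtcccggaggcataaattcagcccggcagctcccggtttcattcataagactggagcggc
Atf3: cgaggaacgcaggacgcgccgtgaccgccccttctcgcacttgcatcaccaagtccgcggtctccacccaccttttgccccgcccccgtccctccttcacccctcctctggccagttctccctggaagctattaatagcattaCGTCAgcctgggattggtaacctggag
Jun: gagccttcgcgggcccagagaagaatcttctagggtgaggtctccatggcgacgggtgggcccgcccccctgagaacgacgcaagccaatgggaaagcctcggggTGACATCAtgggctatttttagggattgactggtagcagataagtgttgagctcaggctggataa
The pentamer began 66 and 129 bases before the start in Fos, 60 in Fosb, 106 in Junb and 7 in Atf3, and the Jun element began 45 bases before it. These matches describe letters and do not measure binding.

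Of the 10 genes, 7 were lower in CD34+ cells by at least 1 probe set, and the amounts differed widely. Junb was 3.90-fold lower, Fosb 3.53-fold, Ier2 3.19-fold and Atf3 3.02-fold. Egr1 was 1.47-fold and Fos 1.32-fold lower, and Jun was 2.64-fold lower by 1 of its 2 probe sets. In all, 7 of the 14 were lower and 0 higher (limma, Benjamini-Hochberg adjusted p under 0.05 over all probe sets; 1 was higher at an unadjusted p under 0.05), where 21.5% of all probe sets passed, 13.9% lower and 7.64% higher. Among probe sets with a mean of at least 5 on the log2 scale 28.7% were lower, and 12 of the 14 had such a mean. When arrays 1-2, 3-4 and 5-6 were averaged first, a pairing that is assumed, the number lower was again 7, against 14.7% of all. Within the CD34+ fraction, arrays 1 and 3 were most like array 5 over all probe sets, and arrays 2 and 4 most like array 6. CD34- arrays 1 and 2 were most like each other, and so were CD34- arrays 4 and 5. These likenesses go with the assumed pairing for CD34- arrays 1 and 2 but not for the CD34+ arrays. The median log2 difference was -0.50 over the 14 and 0.064 over all probe sets, and -0.23 over all those with a mean of at least 5.

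CD34+ arrays 1, 3 and 5 stood apart, with a standard deviation over all probe sets of 1.92 to 2.07, against 2.19 to 2.32 on the other 9 arrays. Without them 3 of the 14 were lower, Junb, Atf3 and Ier2, against 8.22% of all probe sets (16.4% of those with a mean of at least 5), and 0 were higher, against 7.36%. The gap between the 3' and 5' Actb controls, a sign of RNA quality, averaged 4.54 ± 0.66 for CD34+ and 2.48 ± 0.49 for CD34- (log2, SD, n = 6 each, two-sided exact permutation p = 0.00216, the smallest possible). That of Gapdh averaged 4.01 ± 0.36 and 3.41 ± 0.16. The mean gap of both controls differed by 1.33 between the fractions, and by 1.54 without CD34+ arrays 1, 3 and 5 (two-sided exact permutation p = 0.0238). Leaving those arrays out thus did not remove the difference in RNA quality. Of the markers, Cd34 was higher by 6.92 (log2), 7 of 8 bulge markers were higher and 5 of 8 keratinocyte markers lower. Among all genes 17.5% were lower and 7.73% higher. Itga6 (-0.82), which is in both lists, was the bulge marker that was lower. Leaving out CD34+ arrays 1, 3 and 5, 7 bulge markers were higher and 3 keratinocyte markers lower, where 8.39% and 9.89% of all genes were. T cell markers were lower for 6 of 7, with summed linear signals of 331 to 868 in CD34+ and 1615 to 3068 in CD34- arrays, and Cd28 was near the low end of the scale in both. Langerhans and myeloid markers were lower for 5 of 8 (732 to 945 in CD34+ and 1044 to 2108 in CD34- arrays), and fibroblast markers higher for 5 of 8 (784 to 4855 in CD34+ and 306 to 1327 in CD34- arrays). With CD34+ arrays 1, 3 and 5 left out, 6 T cell and 4 Langerhans and myeloid markers were lower and 4 fibroblast markers higher. Of 5 melanocyte markers Mitf (3.13) and Sox10 (0.49) were higher and Tyrp1 (-0.67) was lower, with sums of 1011 to 2084 in CD34+ and 342 to 441 in CD34- arrays that Mitf dominates, and Dct (-0.36) and Pmel (-0.26) did not pass. Without CD34+ arrays 1, 3 and 5, 1 was higher (Mitf) and 1 lower (Pmel). Endothelial markers (103 to 142 in CD34+ and 96.0 to 110 in CD34- arrays) and mast cell markers (45.7 to 96.6 in CD34+ and 40.6 to 55.5 in CD34- arrays) had 0 calls by limma, and 1 and 2 at an unadjusted p under 0.05. In bulk RNA, fewer cells of a type and less RNA per cell cannot be told apart, and the part of RNA quality and other cell types in the differences was not tested.

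Among the Jun subunits, Junb differed most. Junb, known to restrain proliferation in several cell types, read 5.70, 6.16 and 7.29 in CD34+ arrays, against 7.59, 8.34 and 8.81 in CD34- arrays (lowest, median and highest). All CD34+ arrays lay below all CD34- arrays, as for 4 of the 14 probe sets and 6.86% of all. The means ± SD of 6 arrays were 6.26 ± 0.57 in CD34+ and 8.22 ± 0.49 in CD34- arrays, a log2 difference of -1.96 (SE 0.27, limma adjusted p = 0.000268), and of -1.55 without CD34+ arrays 1, 3 and 5 (adjusted p = 0.00614).

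Jun, the founding member and a driver of keratinocyte proliferation, was read by 2 probe sets that moved by unequal amounts. Probe set 1417409_at read 6.95, 8.89 and 9.22 in CD34+ arrays, against 9.39, 9.99 and 10.75 in CD34- arrays, with no overlap. Its log2 difference was -1.40 (SE 0.36, limma adjusted p = 0.0144), and -0.84 without CD34+ arrays 1, 3 and 5 (adjusted p = 0.0622). Probe set 1448694_at read 8.58, 9.49 and 10.05 in CD34+ arrays, against 9.33, 9.82 and 10.12 in CD34- arrays, and the fractions overlapped. It differed by -0.31 (95% interval -0.79 to 0.17, limma adjusted p = 0.327). The gap between the fractions was unequal by 1.09 on the log2 scale (two-sided exact permutation p = 0.00216, adjusted p = 0.00866 over 4 genes). That test takes arrays that share an RNA as separate. With 3 samples a fraction its smallest p would be 0.1. Within a fraction both probe sets went up and down together (r = 0.85, 12 arrays, some of which share an RNA).

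Jund, a Jun protein present in many resting cells, did not pass. Probe set 1449117_at read 10.22, 10.66 and 10.83 in CD34+ arrays, against 10.57, 10.79 and 10.99 in CD34- arrays, a log2 difference of -0.22 (95% interval -0.50 to 0.046, limma adjusted p = 0.211). CD34+ arrays 5 and 6 were the lowest of the 12. After a further quantile normalization the difference was 0.014. Probe set 1440265_at averaged 3.23 in CD34+ and 2.94 in CD34- arrays, where the Trpn controls at the low end of the scale read 2.31 to 2.95, and differed by 0.30 (adjusted p = 0.0853).

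**Figure D1:**
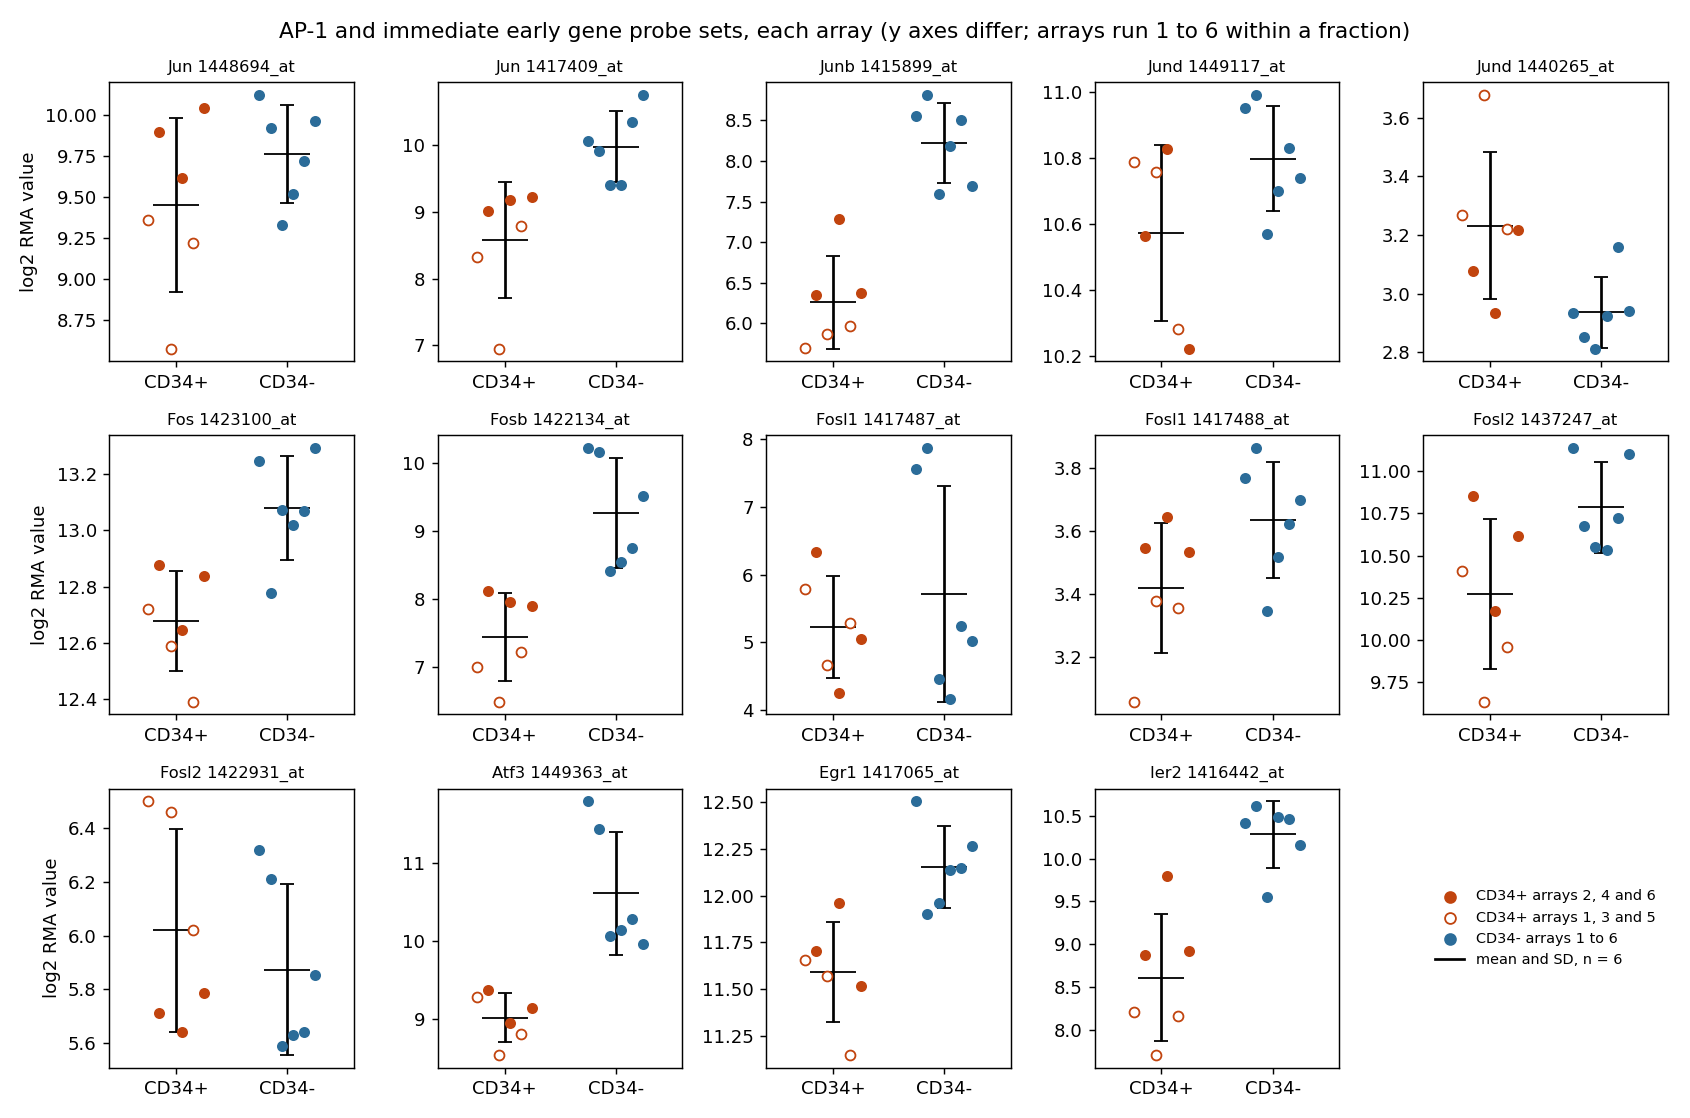
Log2 RMA value (y axis, scale differs between panels) of each of the 14 probe sets on the CD34+ arrays (left, open for arrays 1, 3 and 5) and CD34- arrays (right), with the mean and SD of 6 arrays in black. The fractions do not overlap for Junb, Fosb, Atf3 and Jun 1417409_at.

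Among the Fos subunits, Fosb and Fos were both lower in CD34+ cells. Fosb, which pairs with Jun proteins, read 6.49, 7.56 and 8.12 in CD34+ arrays, against 8.41, 9.13 and 10.21 in CD34- arrays, and the fractions did not overlap. The means ± SD of 6 arrays were 7.45 ± 0.65 in CD34+ and 9.27 ± 0.81 in CD34- arrays, a log2 difference of -1.82 (SE 0.37, limma adjusted p = 0.00349), and of -1.27 without CD34+ arrays 1, 3 and 5 (adjusted p = 0.0581).

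Fos read near the top of the scale on every array. Its values were 12.39, 12.68 and 12.88 in CD34+ arrays, against 12.78, 13.07 and 13.29 in CD34- arrays, and the highest value in the table was 14.15. CD34- array 2 lay within the CD34+ range, and the other 5 CD34- arrays lay above all CD34+ arrays. The log2 difference was -0.40 (SE 0.11, limma adjusted p = 0.0186), and -0.29 without CD34+ arrays 1, 3 and 5 (adjusted p = 0.135).

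Fosl2 and Fosl1, the Fos-related proteins Fra-2 and Fra-1, did not pass. Fosl2 at 1437247_at read 9.63, 10.29 and 10.85 in CD34+ arrays, against 10.53, 10.70 and 11.14 in CD34- arrays, a log2 difference of -0.51 (SE 0.19, limma adjusted p = 0.0751). Its probe set 1422931_at averaged 6.02 in CD34+ and 5.87 in CD34- arrays and differed by 0.15 (adjusted p = 0.578), or -0.16 without CD34+ arrays 1, 3 and 5. Fosl1 at 1417488_at averaged 3.42 in CD34+ and 3.64 in CD34- arrays and differed by -0.22 (adjusted p = 0.193).

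Fosl1 at 1417487_at had the widest interval of the 14 (-1.84 to 0.86 around a log2 difference of -0.49, limma adjusted p = 0.580). It read 5.78 and 6.34 on CD34+ arrays 1 and 2 and 4.25 to 5.28 on the other 4. On CD34- arrays 1 and 2 it read 7.56 and 7.87, and 4.17 to 5.24 on the other 4. Arrays 1 and 2 were the highest of both fractions, while the other arrays of both covered nearly one range. The log2 difference was -1.65 for arrays 1 and 2, 0.14 for arrays 3 and 4 and 0.037 for arrays 5 and 6. Whether numbers in titles stand for isolations is not labelled, and arrays singled out by their values were not tested.

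Atf3, a stress-induced bZIP protein that pairs with Jun proteins and can repress transcription, was lower throughout. It read 8.54, 9.04 and 9.37 in CD34+ arrays, against 9.95, 10.21 and 11.79 in CD34- arrays, with no overlap. The log2 difference was -1.59 (SE 0.31, limma adjusted p = 0.00236), and -1.46 without CD34+ arrays 1, 3 and 5 (adjusted p = 0.0315). As for Fosl1, CD34- arrays 1 and 2 were high, at 11.79 and 11.43, against 9.95 to 10.28 on the other 4. By arrays 1 and 2, 3 and 4, and 5 and 6, Atf3 differed by -2.28, -1.36 and -1.15. Fosb differed by -2.63, -1.25 and -1.57, and Junb by -2.66, -1.30 and -1.93, so all 3 genes were lower in each pair of arrays.

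**Figure D2:**
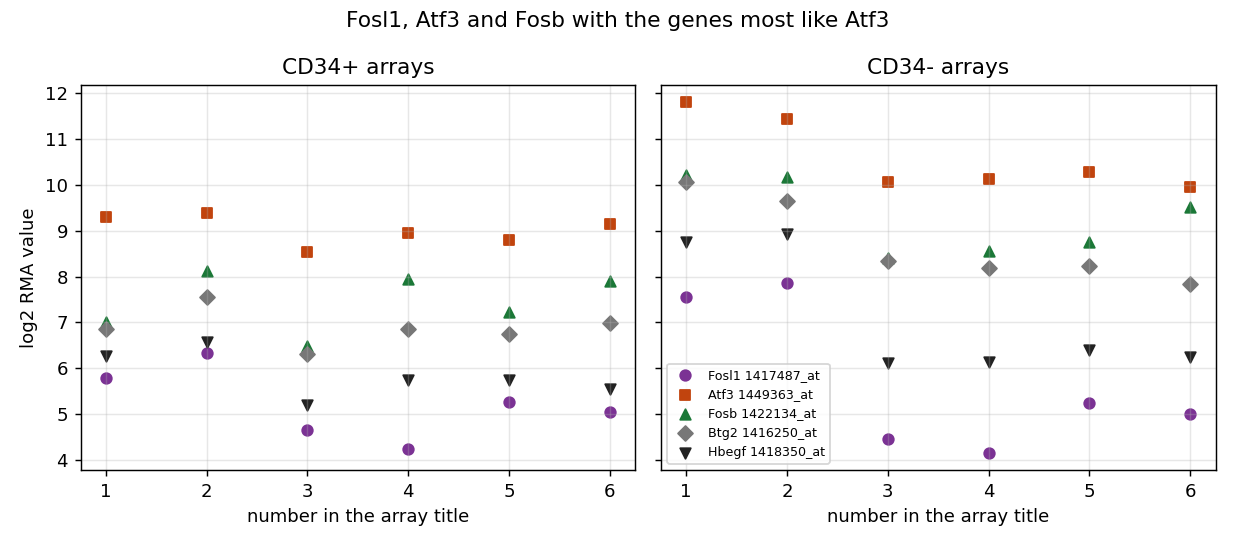
Log2 RMA value (y axis) by the number in the array title (x axis) for Fosl1, Atf3, Fosb and the 2 genes most like Atf3 (Btg2 and Hbegf), in CD34+ arrays (left) and CD34- arrays (right). On the CD34- side arrays 1 and 2 are the highest for each probe set plotted.

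Both further immediate early genes were lower in CD34+ cells. Ier2, a small nuclear protein induced by growth factors, read 7.70, 8.54 and 9.79 in CD34+ arrays, against 9.55, 10.44 and 10.61 in CD34- arrays. CD34+ array 4 lay above CD34- array 3, and the other 5 CD34+ arrays lay below all CD34- arrays. The log2 difference was -1.68 (SE 0.30, limma adjusted p = 0.00153), and -1.09 without CD34+ arrays 1, 3 and 5 (adjusted p = 0.0163).

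Egr1, a zinc finger factor induced through serum response factor, read 11.15, 11.61 and 11.96 in CD34+ arrays, against 11.90, 12.14 and 12.50 in CD34- arrays. CD34+ array 4 alone reached into the CD34- range. The log2 difference was -0.56 (SE 0.14, limma adjusted p = 0.0101), and -0.43 without CD34+ arrays 1, 3 and 5 (adjusted p = 0.0731).

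**Figure D3:**
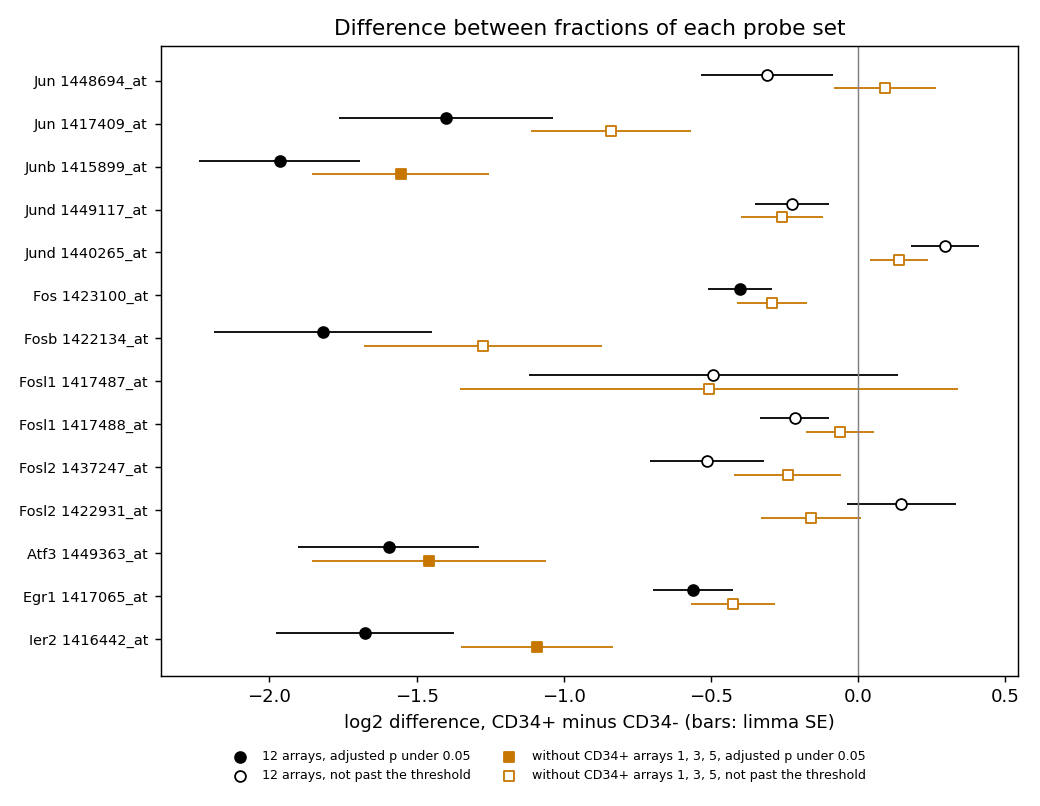
Log2 difference, CD34+ minus CD34- (x axis), of each probe set with limma's standard error, from 12 arrays (circles) and without CD34+ arrays 1, 3 and 5 (squares), filled where the adjusted p was under 0.05. With 12 arrays 7 are filled, and without the 3 arrays Junb, Atf3 and Ier2 are.

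The differences of the genes were then compared with each other, a test added after the values were seen. For 45 pairs of genes, each at its probe set with the highest mean, the gap between both genes on an array was compared between the fractions (two-sided exact permutation test, p adjusted over all pairs). In 20 pairs the adjusted p was under 0.05, and these were Junb, Fosb, Atf3 and Ier2 each with Jun, Jund, Fos, Fosl2 and Egr1. They differed by 1.03 to 1.74 on the log2 scale, and all 20 kept their sign without CD34+ arrays 1, 3 and 5 (0.67 to 1.64). The log2 differences of Junb and Jund were unequal by 1.74 (exact permutation adjusted p = 0.00749). Those of Fosb and Fos were unequal by 1.42 (adjusted p = 0.00749), but Fos, like Egr1, reads near the top of the scale, and whether that narrowed its difference was not tested, so the pairs with Fos or Egr1 do not show that its RNA changed less. This test counts arrays that share an RNA as separate, and with 3 samples a fraction no exact p could be under 0.1. On means of arrays 1-2, 3-4 and 5-6, a pairing that is assumed, 20 of the 20 pairs were at that smallest value, as was 1 of the other 25. The 20 pairs were picked on these same arrays, and a gap that separates all arrays must also separate their means. These counts are therefore no further support. Jun stood with the small differences by 1448694_at, not by its other probe set. Fosl1 passed with 0 of the other genes by this test, and with 2 (Fosb and Atf3) at an unadjusted p under 0.05.

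Within a fraction most genes varied together. After each fraction's mean was subtracted, 40 of 45 pairs correlated above 0 over 12 arrays, with a median r of 0.41 and a range of -0.14 to 0.91. The arrays share RNA in part, and array quality, so these values are descriptions. The same count and median for pairs of other genes are not given here. These values therefore do not show a trait particular to the 10 genes. Jun went with Fosl2 (r = 0.89) and Fosb (0.85), Junb with Ier2 (0.88) and Fos with Fosl2 (0.76). Fosl1 with Atf3 was highest (0.91) but was 0.14 over the 8 arrays left without arrays 1 and 2, where Junb with Ier2 was 0.92.

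**Figure D4:**
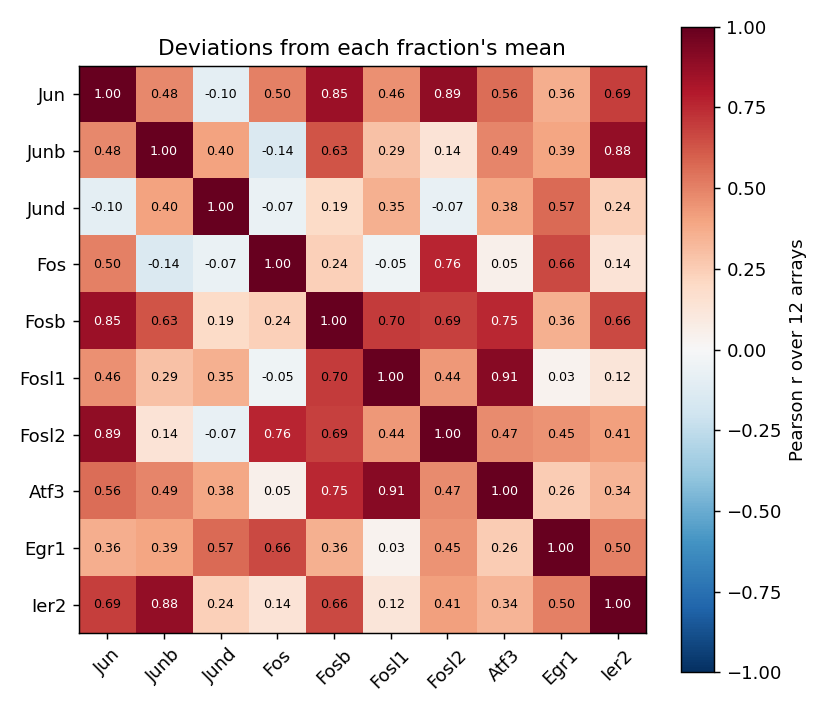
Pearson r between the members at their highest-mean probe sets, over 12 arrays after subtraction of each fraction's mean, on a colour scale from -1 to 1. Fosl1 with Atf3 (0.91), Jun with Fosl2 (0.89) and Junb with Ier2 (0.88) are the highest.

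By the same measure, the genes most like each member were sought over 11376 candidate probe sets with a mean of at least 6. Each r below is among the highest of these, so its size alone shows no special likeness. Those most like Atf3 were Btg2 at 1416250_at, an antiproliferative immediate early gene (r = 0.97), Hbegf, a ligand of the EGF receptor (0.96), and Got1 (0.93). Hbegf was also the most like Fosl1 (0.96), before Btg2 at another probe set, 1448272_at (0.93), and Celf4 (0.92). Hbegf read 6.26 and 6.57 on CD34+ arrays 1 and 2 and 5.21 to 5.76 on the other 4, against 8.75 and 8.94 on CD34- arrays 1 and 2 and 6.13 to 6.41 on the other 4. Like Fosl1, Hbegf was highest on arrays 1 and 2 of both fractions. Unlike Fosl1, its other 4 arrays did not overlap between the fractions and were lower in CD34+. The genes most like Junb were Rgcc, Ctr9 and Cst6 (0.94 to 0.95), and those most like Ier2 were Zfp750, a factor of epidermal differentiation, Orai1, a calcium channel, and Atp6v1a (each 0.97). For Jun they were Rabggtb, Crb3 and Heca, for Jund Mgat1, Akap13 and Srrm1, and for Fos Actg1, Tuba1a and Acly. For Fosb they were 4930523C07Rik, Tiparp and Epgn, for Fosl2 Abtb2, Rai14 and Hspa5, and for Egr1 Bcl10, Hyal2 and Tob1.

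Other immediate early genes were lower more often than higher. Of 40, each at its highest-mean probe set, 16 were lower and 2 higher, with a median of -0.52, where 17.5% of all genes were lower and 7.73% higher. Among probe sets with a mean of at least 5, 28.7% were lower. Gem, a small GTP-binding protein (-2.27), and Dusp6, a phosphatase that turns off ERK (-2.02), fell. The matrix-associated Ccn2 was higher, at 11.38 in CD34+ and 6.90 in CD34- arrays (4.48, limma adjusted p = 2.55e-08), and so was Phlda1 (1.17), named after its value was seen. Without CD34+ arrays 1, 3 and 5, 9 were lower and 2 higher, against 9.89% and 8.39% of all genes. Of the probe sets with a mean of at least 5, 16.4% were then lower.

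Of 20 other bZIP proteins 6 were lower and 2 higher (median -0.30), where 17.5% and 7.73% of all genes were. Among probe sets with a mean of at least 5, 28.7% were lower, near the share of this list. Without the 3 arrays 2 were lower and 3 higher, where 9.89% and 8.39% of all genes were, so the share lower was near that of all genes. Cebpd was higher (0.83), and Atf4, a factor of the integrated stress response (-0.80), and Nfe2l2, which directs oxidative stress genes (-0.80), were lower, although Nfe2l2 did not pass without the 3 arrays (limma adjusted p = 0.185). Jdp2, a repressor that pairs with Jun, was the other that was higher (0.79), named after its value was seen. Of 16 upstream kinases and serum response factors 6 were lower and 0 higher (median -0.37), beside the same 17.5% and 7.73% of all genes. The share lower was again 28.7% among probe sets with a mean of at least 5. Without the 3 arrays 5 were lower and 0 higher, beside 9.89% and 8.39% of all genes, and 16.4% lower among probe sets with a mean of at least 5. The ERK-activated kinase Rps6ka3 fell by 1.02, the JNK kinase Mapk9 by 0.82 and Mapkapk2 by 0.71 on the log2 scale, Mapkapk2 not without the 3 arrays (adjusted p = 0.170).

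Of 21 genes known as AP-1 targets in keratinocytes, 3 were lower and 2 higher, with a median of 0.19. These counts are near the 17.5% lower and 7.73% higher of all genes. The cornified envelope precursor Sprr1a (-1.24), the matrix metalloproteinase Mmp3 (-0.66) and the hyaluronan receptor Cd44 (-0.48) were lower. Mmp10 (0.40) and Hmox1 (0.42), named after their values were seen, were higher. Mmp3 averaged 3.46 in CD34+ and 4.12 in CD34- arrays, Mmp10 4.43 and 4.03, and Hmox1 4.30 and 3.88, all low on the scale. Without the 3 arrays 1 was lower, Mmp3, and 1 higher, Ptgs2 (0.70), where 9.89% and 8.39% of all genes were. Of 11 heat shock genes 4 were lower and 0 higher (median -0.38), read against 17.5% and 7.73% of all genes. Probe sets with a mean of at least 5 were lower in 28.7%. Dnaja1 (-0.64), Hspd1 (-0.64) and Bag3 (-0.54) led. Without the 3 arrays 2 were lower, Hspd1 and Bag3, and 0 higher, beside 9.89% and 8.39% of all genes. Probe sets with a mean of at least 5 were then lower in 16.4%. At an unadjusted p under 0.05, 0 heat shock genes and 0 upstream genes were higher.

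**Figure D5:**
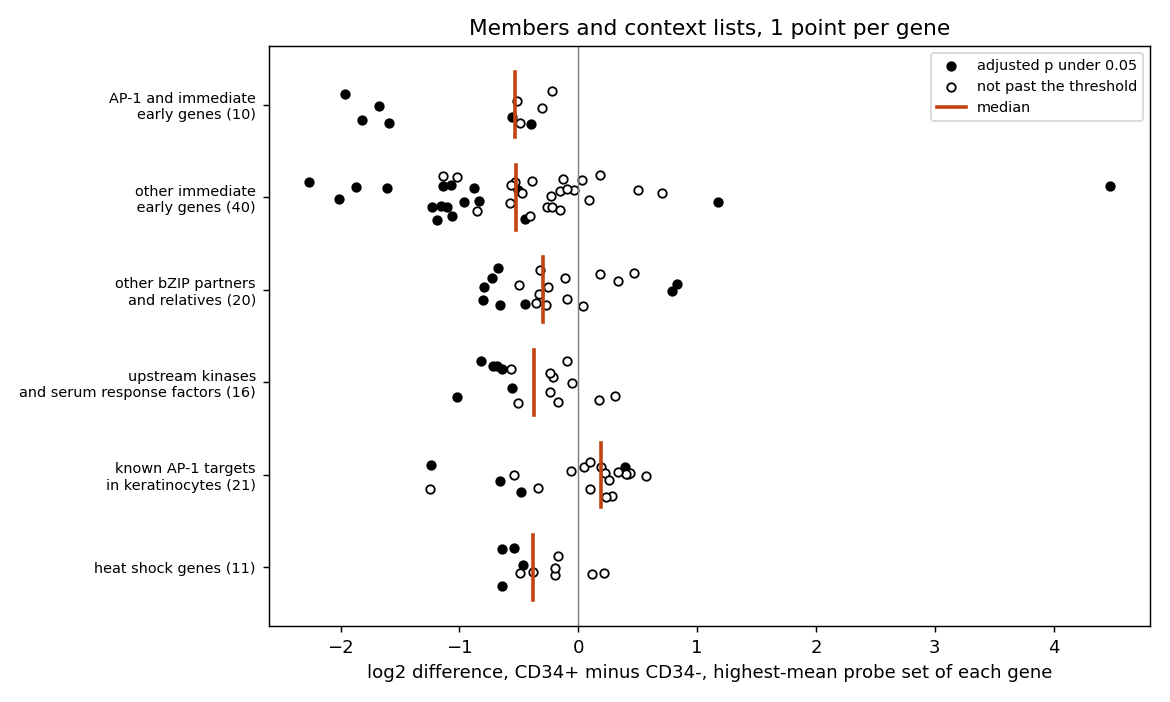
Log2 difference, CD34+ minus CD34- (x axis), of each gene at its highest-mean probe set, for the 10 members and 5 lists (rows), filled where limma's adjusted p was under 0.05, with the median as a bar. The medians are below 0 in each row except that of the AP-1 targets (0.19), and Ccn2 stands at 4.48.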

How the data were processed

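Biotin-labelled total RNA of both fractions was measured on 12 arrays, per the labels. The deposited log2 values, 1 for each probe set on each array, came from RMA according to the submitters' processing notes. Its version, and whether all arrays were normalized together, are not given in the sources used here. Of 45101 probe sets 64 controls were set aside; of the rest 34945 were tied to 1 gene symbol, 932 to several and 9160 to none.

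The fractions were tested with lmFit and eBayes of limma 3.58.1 (R 4.3.3), without a block, on all 45037 probe sets, with Benjamini-Hochberg adjustment over them. Differences are CD34+ minus CD34-. Arrays of one RNA entered as separate samples, so p-values reflect spread between arrays and are too small where these are alike. The number of arrays limits the precision. Permutation tests enumerated 924 splits. Alternatives were quantile normalization, median centring, a minimum mean of 5, 1 probe set per gene, the array number as a block, pair means, array weights, an eBayes trend and left-out arrays.

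Every member probe set is named, with the 3 largest called changes of each context list and the 3 genes most like each member. Members and lists were chosen with earlier results of these data known.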

Additional observations from a re-analysis of the deposited data

Results flagged for a closer look

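Of 28 sets of 6 arrays, 1 had an array far from the rest. Jund at 1440265_at read 3.16 on CD34- array 5, with a gap to the next array of 0.635 of the set's whole range. Chance gives such a gap in about 1 in 20 sets.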

How the results depend on the processing

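Junb, Atf3 and Ier2 were called lower under all 22 alternatives run. Without CD34+ arrays 1, 3 and 5, 3 of the 14 probe sets were lower in place of 7, Jun 1417409_at, Fos, Fosb and Egr1 were not called, and Jun 1448694_at (0.091) and Fosl2 1422931_at (-0.16) changed sign. A further quantile normalization gave Jund 1449117_at 0.014. With single arrays left out, 7 to 8 of the 14 were lower and 0 to 1 higher (Jund 1440265_at without CD34+ array 4, adjusted p = 0.0333), and 7439 to 12318 probe sets were called in all. With 1 probe set per gene 4750 were called against 9704, among fewer features. Deviations of same-numbered arrays of both fractions correlated at -0.15 to 0.47 (median 0.35). The median was -0.056 for differently numbered arrays of the same assumed pair and -0.047 for arrays of other pairs. Of the same-numbered arrays 2 of 6 were under 0.1, and 4 of 6 CD34+ arrays went best with their own number. Most same-numbered arrays thus went together, but not all did. The main fit did not take the numbers as a pairing, and whether they mark one is not labelled. With the number as a replicate block 10209 probe sets were called, and Fosl2 1437247_at passed (adjusted p = 0.0331), as it did without CD34+ array 2 (adjusted p = 0.0249) and with array pairs as a block, chosen after seeing the data (adjusted p = 0.0421). It did not pass on the means of the same array pairs (adjusted p = 0.0994) or under the other alternatives (adjusted p up to 0.459). Median centring moved the median of all probe sets by -0.10 (log2) and changed no member's call. The cause of these changes was not tested. Probe sets near the Trpn controls carry little signal.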

Other observations

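Some other immediate early and heat shock genes had a highest-mean probe set that did not pass beside others that were lower in CD34+ cells. The genes were picked after their values were seen, and whether the probe sets of a gene differed from each other was not tested. For each gene named, more than 1 further probe set was lower, and the 1 with the largest difference is given. Further probe sets of Nfkbia, Mcl1 and Hspa8 also did not pass. The inhibitor of NF-kappa B, Nfkbia, differed by 0.035 at its highest-mean probe set (limma adjusted p = 0.852) and by -1.20 at 1448306_at (adjusted p = 0.00533). The survival protein Mcl1 differed by -0.034 at its highest-mean probe set (limma adjusted p = 0.884) and by -1.34 at 1416881_at (adjusted p = 0.00613). The chaperone Hspa8 differed by 0.11 at its highest-mean probe set (limma adjusted p = 0.675) and by -1.21 at 1420622_a_at (adjusted p = 0.00745), and the antiproliferative Btg1 by 0.18 at its highest-mean probe set (limma adjusted p = 0.372) and by -1.40 at 1442018_at (adjusted p = 0.0129). The highest-mean probe sets of Nfkbia and Hspa8 averaged 12.77 and 12.34 in CD34+ and 12.73 and 12.23 in CD34- arrays, near the top of the scale.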
